A study of Mus musculus with 4 samples.

Results

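NF-κB subunits and the inhibitors that hold them in check were followed in mouse lung, in 10 genes: Rela, Relb, Rel, Nfkb2, Nfkbia, Nfkbib, Nfkbie, Bcl3, Tnfaip3 and Tnip1. They were chosen by name, with earlier results of these data known. Each probe set that the platform annotation assigns to exactly 1 of these symbols was taken. All 10 genes had one, with 18 probe sets in all, of 45037 on the array. A probe set is a group of short oligonucleotides on an Affymetrix array that together give 1 intensity for 1 transcript. Lungs labelled IKKa floxed (2 arrays) were compared with wild type lungs (2 arrays). The floxed mice carry loxP sites in the gene of IKKα, a kinase of the IκB kinase (IKK) complex, and the enzyme Cre recombinase removes DNA between such sites. Both groups were of strain B6/J and had received adenovirus carrying Cre through the trachea, and whole lungs were taken 4 months later, so exposure to virus and Cre was common to both. The labels do not give the promoter that drove Cre, whether 1 or both alleles were floxed, or whether the arrays come from different animals. The spread between these samples, to which p-values refer, may thus be technical, and whole lung also holds cells that the virus did not reach. The targeted gene itself was not analysed here.

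NF-κB transcription factors are dimers of Rel proteins that rest in the cytoplasm bound to IκB proteins. In the canonical pathway, the IKK complex phosphorylates IκBα, IκBβ and IκBε, which are then degraded, and dimers of RelA or c-Rel enter the nucleus. In the non-canonical pathway, IKKα phosphorylates the p100 precursor made from Nfkb2, which is then processed to p52, the partner of RelB. Several of these genes are known NF-κB targets themselves, so that activation of the factor raises its own inhibitors, such as IκBα and the ubiquitin-editing enzyme A20 encoded by Tnfaip3.

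The promoters are shown first, because most of those found hold letters that match the sequence NF-κB recognises. RefSeq windows (assembly GRCm38.p6) from 250 bases before to 50 bases after an annotated transcription start were found for 9 of the 10 genes, 12 windows in all, and none was matched for Relb. The κB consensus, a motif of 10 letters searched on both strands, was present in at least 1 window of 7 of these 9 genes: Rel, Nfkb2, Nfkbia, Nfkbie, Bcl3, Tnfaip3 and Tnip1. It was present in 4.51% of all 32851 windows of the same length and in at least 1 window of 5.14% of 27025 genes. A looser form that keeps only the outer bases (GGG, any 5 bases, then CC), of which the consensus is a special case, was present for 8 of the 9 genes and for 53.5% of all genes, so it separates little. Stretches upstream of the start are printed for 6 genes that hold the consensus there, 5′ to 3′ on the strand of the gene, with the matching bases in capitals. Overlapping matches run together, and a match is a description of letters, not evidence of binding.
Rel: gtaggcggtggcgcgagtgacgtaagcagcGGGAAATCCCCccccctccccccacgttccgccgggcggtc
Nfkb2: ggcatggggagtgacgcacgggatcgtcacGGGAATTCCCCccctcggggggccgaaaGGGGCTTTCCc
Nfkbia: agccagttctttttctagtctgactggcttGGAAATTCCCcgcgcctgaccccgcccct
Nfkbie: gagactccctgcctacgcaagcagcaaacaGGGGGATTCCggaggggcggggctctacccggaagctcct
Tnfaip3: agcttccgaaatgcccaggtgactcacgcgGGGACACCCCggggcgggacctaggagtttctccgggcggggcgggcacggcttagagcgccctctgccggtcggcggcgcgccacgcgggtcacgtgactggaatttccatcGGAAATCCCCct
Tnip1: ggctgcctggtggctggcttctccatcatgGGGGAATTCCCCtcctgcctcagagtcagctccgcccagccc
In GRCm38.p6 coordinates these lie at chr11:23771021-23771091 on the minus strand for Rel, chr19:46304668-46304736 on the plus strand for Nfkb2, chr12:55492648-55492706 on the minus strand for Nfkbia and chr17:45555564-45555633 on the plus strand for Nfkbie. Those of Tnfaip3 and Tnip1 lie at chr10:19015411-19015565 and chr11:54962957-54963028, both on the minus strand. The match in Nfkbia begins 29 bases before the start. In the printed stretches, Rel and Nfkb2 each hold a pair of matches offset by 1 base. Nfkb2 holds a further match next to its start, and Tnip1 holds 3 overlapping matches that form the palindrome GGGGAATTCCCC. Nfkb2 has 3 windows, each with the consensus, and only the stretch from window 1 is printed. No consensus match was found in the windows of Rela and Nfkbib, which says only that these letters are not in those windows.

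The deposited arrays share 1 trimmed mean, 150.001 on each, with median intensities of 32.1 to 34.3. Lung markers were strong on all 4 arrays, with the surfactant gene Sftpc at 13618 and 10831 in floxed and 9204 and 8743 in wild type lungs. The groups also differed in the sex of the tissue by its transcripts. Xist, the female-specific RNA of X inactivation, stood at 4246 and 4629 in floxed lungs, against 31.8 and 22.9 in wild type lungs. The Y-linked Eif2s3y stood at 3.77 and 6.14 in floxed lungs, against 519 and 530 in wild type lungs, so genotype and sex cannot be told apart in any comparison here. The 3′ to 5′ signal ratio of the Gapdh control probe sets, which reads how intact the RNA was, came to 1.44 and 1.68 in floxed and 1.18 and 1.10 in wild type lungs, while that of actin was 2.67 and 2.77 in floxed and 2.65 and 2.46 in wild type lungs.

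No member of the family passed the test between floxed and wild type lungs. Intensities were compared as log2(intensity + 16) with limma over 31526 probe sets that were not among the dimmest 30 percent, and a call was an adjusted p under 0.05 after Benjamini-Hochberg adjustment over all of them. Of 17 member probe sets tested, 0 were called by limma, where 0.546% of all probe sets were (172 called, with 0.295% higher and 0.251% lower). Of the 17, 4 had an unadjusted p under 0.05, all higher, against 10.8% of all probe sets in either direction and 4.36% in the higher one. The values nevertheless leaned to one side. In 14 of the 17 the log2 fold change lay above 0, as for 44.5% of all probe sets, and the median was 0.23 against -0.03 over all tested. In 10 of the 17 both floxed arrays lay above both wild type arrays, against 18.4% of all probe sets, and in 1 both lay below, against 24.1%. Nfkbia alone supplies 5 of the 17, so these are not independent counts, and they describe the genes without a test of the list. The list was also chosen with earlier results of these data known. Counted once per gene, with the probe set of highest mean, 8 of 10 genes lay above 0, as did 6369 of all 12735 genes. Of the 10, 5 stood apart above (23.6% of all genes), 1 stood apart below (22.2%) and 0 were called (1.77%).

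**Figure D1:**
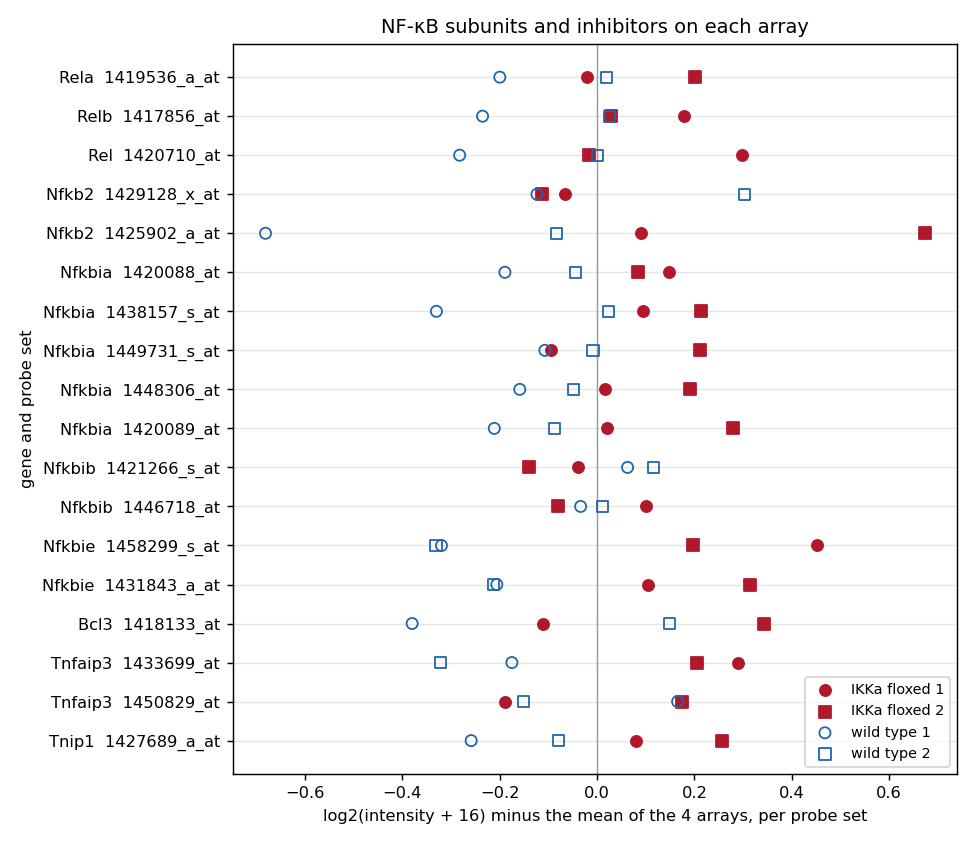
Each row is a member probe set and each point an array, as log2(intensity + 16) minus the mean of that probe set over the 4 arrays (filled, IKKa floxed; open, wild type). Both Nfkbie probe sets and the brighter Tnfaip3 probe set (1433699_at) show the floxed arrays right of the wild type arrays, while for Rela, Rel, Bcl3 and the dimmer Tnfaip3 probe set (1450829_at) the groups overlap.

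Among the subunits, the wild type arrays differed from each other about as much as the groups did. Rela encodes RelA (p65), the main activating subunit of the canonical pathway. Its probe set 1419536_a_at had intensities of 677 and 792 in floxed lungs, against 596 and 696 in wild type lungs, so the groups overlapped. The means were 735 ± 81.1 in floxed and 646 ± 70.3 in wild type lungs (SD, n = 2 each), a log2 fold change of 0.18 ± 0.16 (SE) with a limma adjusted p of 0.729. Its 95% interval ran from 0.87-fold to 1.48-fold.

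Relb encodes the subunit that pairs with p52 in the non-canonical pathway. Probe set 1417856_at read 90.1 and 79.6 in floxed lungs, against 63.6 and 79.4 in wild type lungs. The floxed arrays were both higher, but the lower of them and wild type replicate 2 were nearly equal (log2 fold change 0.21 ± 0.16 SE, limma adjusted p = 0.682). Rel encodes c-Rel, the subunit most used by lymphocytes and other blood cells, and its 1420710_at was dim, at 35.9 and 25.7 in floxed and 18.7 and 26.2 in wild type lungs. The groups overlapped for Rel (log2 fold change 0.28 ± 0.18 SE, limma adjusted p = 0.626).

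The 2 probe sets of Nfkb2 disagreed. For 1425902_a_at, floxed lungs gave 41.2 and 69.6, against 17.5 and 34.7 in wild type lungs, a log2 fold change of 0.76 ± 0.27 (SE), the highest in the family (unadjusted p = 0.0267, limma adjusted p = 0.391). The floxed arrays were higher without overlap, but the arrays within each group differed by 0.58 (floxed) and 0.60 (wild type) on the log2 scale. For 1429128_x_at, floxed lungs gave 60.4 and 57.9, against 57.4 and 82.6 in wild type lungs, a log2 fold change of -0.18 ± 0.18 (SE, limma adjusted p = 0.765). The suffix _x_at marks probe sets in which some probes may also match other transcripts. Without wild type replicate 2, the 1 array that stood high for it, the log2 fold change of 1429128_x_at was 0.034, so its direction rests on that array. No direction for Nfkb2 can be read from the pair.

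The IκB genes that restrain the canonical pathway leaned in different directions, none past the threshold. Nfkbie, which encodes IκBε, an inhibitor of RelA and c-Rel dimers, stood furthest apart in the family. Its probe set 1458299_s_at read 206 and 170 in floxed lungs, against 114 and 113 in wild type lungs. The wild type arrays were nearly equal and both floxed arrays lay well above them, with means of 188 ± 25.3 in floxed and 114 ± 0.789 in wild type lungs (SD, n = 2 each). The log2 fold change was 0.65 ± 0.15 (SE), or 1.56-fold with a 95% interval from 1.21-fold to 2.02-fold, at an unadjusted p of 0.00467 and a limma adjusted p of 0.211.

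The other Nfkbie probe set, 1431843_a_at, showed the same arrangement at lower signal, 39.8 and 48.5 in floxed lungs against 29.0 and 28.8 in wild type lungs (log2 fold change 0.42 ± 0.15 SE, unadjusted p = 0.0274, limma adjusted p = 0.395). Both probe sets read the same 4 RNA samples, so they check the probes and not the animals. Which of the floxed arrays was higher differed between them, replicate 1 for 1458299_s_at and replicate 2 for 1431843_a_at.

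Nfkbia encodes IκBα, the inhibitor that NF-κB induces most directly. It was read by 5 probe sets, with log2 fold changes from 0.12 to 0.31 and limma adjusted p from 0.559 to 0.836. The brightest, 1420088_at, gave 6616 and 6330 in floxed lungs, against 5231 and 5783 in wild type lungs. The groups did not overlap there (log2 fold change 0.23 ± 0.14 SE, limma adjusted p = 0.609). Next, 1438157_s_at gave 3847 and 4179 in floxed lungs, against 2864 and 3662 in wild type lungs. For 1448306_at, floxed lungs gave 1751 and 1979, against 1550 and 1675 in wild type lungs. For 1420089_at the values were 301 and 363 in floxed lungs, against 254 and 278 in wild type lungs. In these 3 probe sets too, both floxed arrays stood above both wild type arrays. The exception was 1449731_s_at, at 1863 and 2307 in floxed lungs against 1848 and 1980 in wild type lungs, where floxed replicate 1 fell between the wild type arrays. Its log2 fold change, 0.12 with all arrays, was -0.038 without floxed replicate 2. The 95% intervals of the 5 probe sets reached at most 1.64-fold.

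Nfkbib encodes IκBβ, an inhibitor that NF-κB induces less than IκBα. It was the 1 gene whose floxed arrays both lay below, with 1421266_s_at at 86.6 and 79.7 in floxed lungs, against 94.1 and 98.2 in wild type lungs. The log2 fold change was -0.18 ± 0.14 (SE, limma adjusted p = 0.689). Its other probe set, 1446718_at, read 5.5 and 2.98 in floxed lungs and 3.59 and 4.22 in wild type lungs. These lie under the minimum mean intensity of 12.7, and it was the 1 member probe set left untested.

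Bcl3 is a nuclear IκB-like protein that joins p50 or p52 dimers on DNA and can activate as well as repress. Probe set 1418133_at read 57.2 and 84.3 in floxed lungs, against 44.8 and 71.7 in wild type lungs. The arrays within each group differed by 0.46 (floxed) and 0.53 (wild type) on the log2 scale, more than the groups did (log2 fold change 0.23 ± 0.24 SE, limma adjusted p = 0.770). The log2 fold change was -0.034 without wild type replicate 1 and 0.0034 without floxed replicate 2, so its direction rests on single arrays.

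Of the feedback inhibitors upstream of IKK, both genes had a probe set whose floxed arrays stood apart above. Tnfaip3 encodes A20, which removes and attaches ubiquitin chains on signalling proteins and so shuts off IKK activation. Probe set 1433699_at read 354 and 333 in floxed lungs, against 252 and 226 in wild type lungs. The gap between groups was wider than the gap within either, with a log2 fold change of 0.50 ± 0.14 (SE), or 1.41-fold with a 95% interval from 1.11-fold to 1.79-fold (unadjusted p = 0.0118, limma adjusted p = 0.306). The second probe set of Tnfaip3, 1450829_at, read 10.6 and 18.2 in floxed lungs, against 18.0 and 11.3 in wild type lungs. It lies close to the minimum intensity and the groups overlapped, with a log2 fold change of -0.012 ± 0.19 (SE, limma adjusted p = 0.988) that turned to 0.013 after quantile normalization.

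Tnip1 encodes ABIN1, a ubiquitin-binding partner of A20. Probe set 1427689_a_at read 261 and 297 in floxed lungs, against 203 and 232 in wild type lungs. The floxed arrays were higher without overlap (log2 fold change 0.34 ± 0.15 SE, 95% interval from 0.98-fold to 1.63-fold, limma adjusted p = 0.495). In both groups replicate 2 was the higher array for Tnip1, by 0.18 on the log2 scale.

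**Figure D2:**
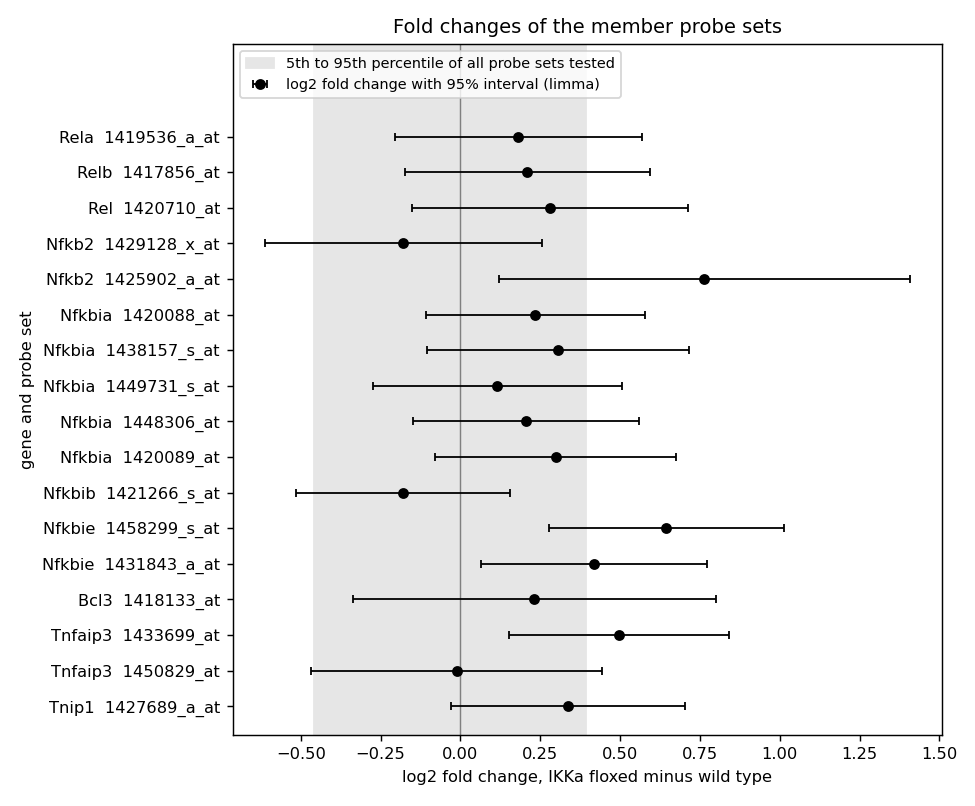
Points are log2 fold changes (IKKa floxed minus wild type) of the 17 member probe sets tested, with the 95% intervals of the limma fit, and the grey band spans the 5th to 95th percentile of all probe sets tested (-0.46 to 0.39). The intervals of 4 probe sets lie above 0 before any adjustment: both of Nfkbie, 1425902_a_at of Nfkb2 and 1433699_at of Tnfaip3.

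The intervals give the size of change that these arrays leave possible on the log2(intensity + 16) scale, which shrinks the change of dim probe sets such as that of Rel (0.28 here, 0.44 with a pseudocount of 1). For 15 of the 17 probe sets the 95% interval, unadjusted for the number of probe sets, lay within a 2-fold change in either direction. The exceptions were 1425902_a_at of Nfkb2, which reached 2.65-fold, and 1458299_s_at of Nfkbie, which reached 2.02-fold. In 9 of the 17 the difference between groups was larger than the difference between arrays of either group. The share of all probe sets with such a difference was not counted, so the 9 only describe the members. With 2 arrays in each group, an exact permutation test of 1 probe set cannot give a two-sided p below 0.333, so none was used.

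Wild type replicate 1 was the lowest array for 12 of the 18 member probe sets, and the share over all probe sets was not counted. It was below wild type replicate 2 for 14 of the 18 probe sets, while floxed replicate 1 was below floxed replicate 2 for 10 of them. The median member level, centred per probe set, was 0.08 and 0.20 on the floxed arrays and -0.21 and -0.045 on the wild type arrays (log2 scale). The median log2 fold change of the family was 0.15 without wild type replicate 1 and 0.36 without wild type replicate 2. For Nfkbie and for 1433699_at of Tnfaip3, leaving out any 1 array kept the log2 fold change at or above 0.31.

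**Figure D3:**
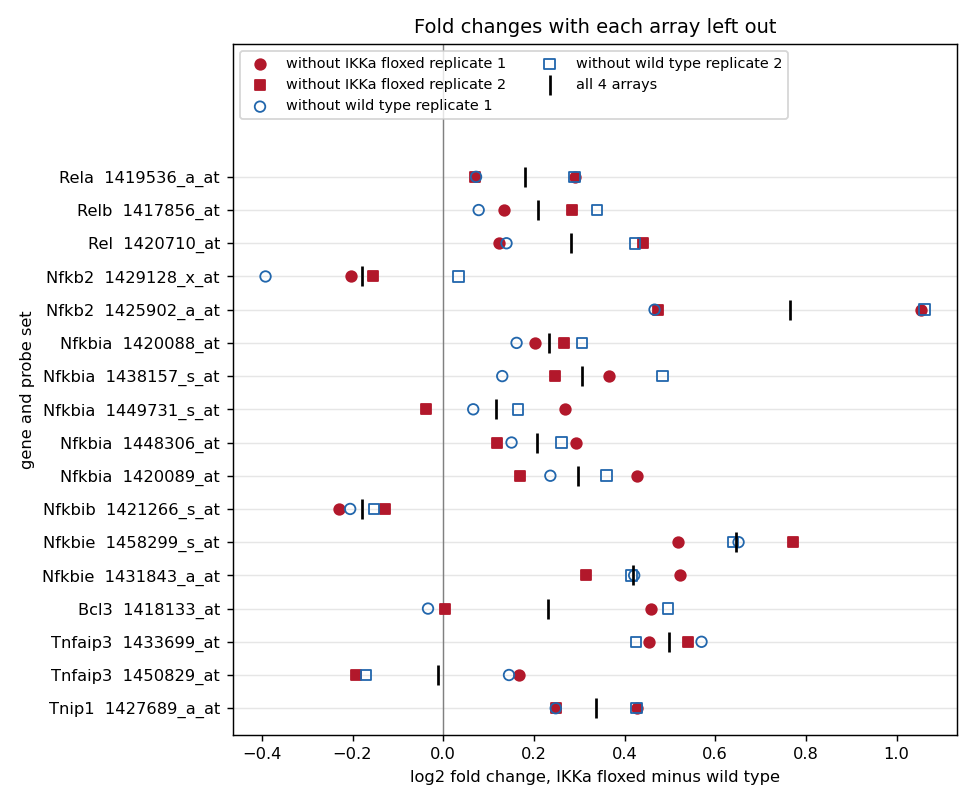
Log2 fold changes (IKKa floxed minus wild type) of the 17 tested member probe sets with all 4 arrays (black bars) and with each array left out in turn (points). The direction changed for 1429128_x_at of Nfkb2, 1449731_s_at of Nfkbia, Bcl3 and 1450829_at of Tnfaip3, and values of 1458299_s_at of Nfkbie stayed between 0.52 and 0.77.

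The rest of the pathway was read from 5 lists of other genes in the same fit, with a probe set tested for 65 of the 78 genes listed. Of 26 probe sets of the 10 genes for kinases and their activators, 0 were called (0.546% of all), 6 lay above 0 (44.5% of all) and 20 below, and the median log2 fold change was -0.11. Ikbkb encodes IKKβ, the kinase of the canonical pathway, and its brightest probe set 1426207_at read 449 and 456 in floxed lungs, against 519 and 464 in wild type lungs. Ikbkg encodes NEMO, the scaffold of the complex, and its brightest probe set 1454690_at read 306 and 279 in floxed lungs, against 364 and 326 in wild type lungs. Both had floxed arrays below wild type arrays, as did 24.1% of all probe sets, and neither was called (limma adjusted p = 0.817 and 0.627). Other tested probe sets of the 2 genes were mixed. Ikbkb 1445141_at and Ikbkg 1435646_at also stood below (log2 fold changes -0.41 and -0.36). For Ikbkb 1426333_a_at and 1432275_at, and for Ikbkg 1421208_at, 1421209_s_at, 1435647_at and 1450161_at, the groups overlapped. Adaptors and ubiquitin ligases had 0 of 25 probe sets called (0.546% of all) and a median of 0.00.

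Other inhibitors and partners of A20 had 1 of 32 probe sets called, against 0.546% of all, with a median of -0.02. That 1 was Nlrc5, listed for its reported inhibition of NF-κB but best known as the transactivator of MHC class I genes. Nlrc5 (1437176_at) read 446 and 370 in floxed lungs, against 113 and 118 in wild type lungs (log2 fold change 1.69 ± 0.15 SE, limma adjusted p = 0.0125). Its call was lost with a pseudocount of 1 or with no filter on low values (adjusted p = 0.129 and 0.0551).

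Canonical target genes of NF-κB had 1 of 35 probe sets called, higher, and a median of 0.22. The 1 call stands against 0.546% of all probe sets. Without adjustment, 12 of the 35 were higher at p under 0.05, against 4.36% of all probe sets, and 3 of the 12 belong to Cxcl1, while 1 was lower. The called one was Ccl3, a chemokine for monocytes and T cells that macrophages and lymphocytes make. Ccl3 (1419561_at) read 51.2 and 38.8 in floxed lungs, against 3.57 and 2.81 in wild type lungs (log2 fold change 1.66 ± 0.16 SE, limma adjusted p = 0.0145). Its wild type values lie under the minimum intensity, so it was tested through its floxed arrays, and its call was also lost with a pseudocount of 1 or no filter (adjusted p = 0.0769 and 0.0637). Non-canonical target genes and ligands had 0 of 12 called (0.546% of all), 11 above 0 (44.5% of all) and a median of 0.16.

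**Figure D4:**
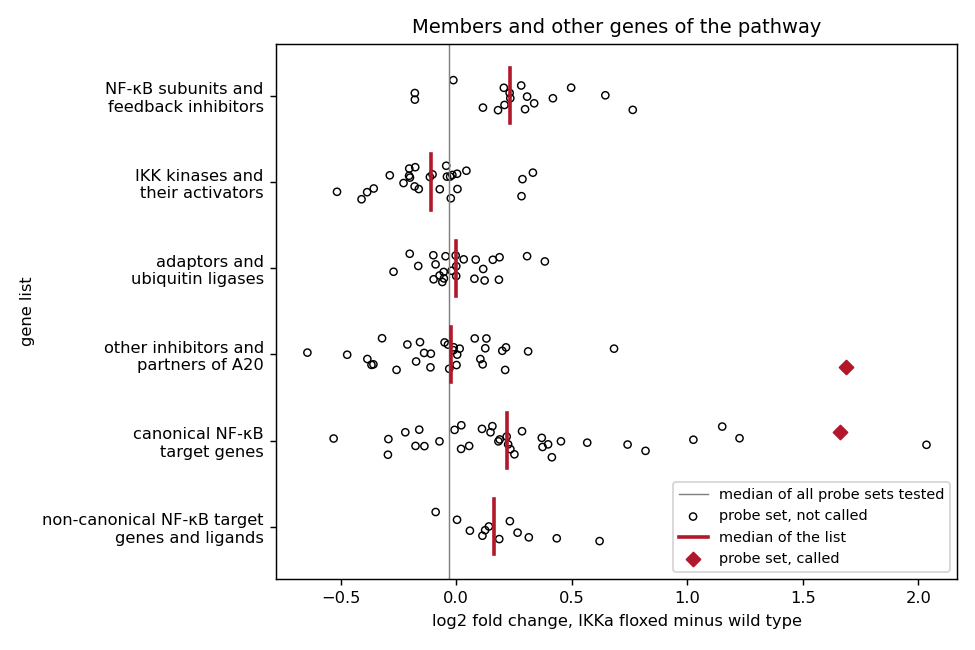
Log2 fold changes (IKKa floxed minus wild type) of every tested probe set of the family and of 5 lists of other pathway genes, with red bars at list medians, diamonds for called probe sets and a grey line at the median of all probe sets tested (-0.03). The family's median is 0.23, that of canonical target genes 0.22 and that of the IKK kinases -0.11, and the called probe sets are Nlrc5 and Ccl3.

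NF-κB genes are expressed in most lung cells and strongly in immune cells, and markers of several immune cell types differed between the groups on the same arrays. In whole lung, fewer cells of a type and less RNA per cell cannot be told apart. The 8 T cell markers measured summed to 868 and 643 in floxed lungs, against 352 and 351 in wild type lungs, with 1 of the list's 10 tested probe sets called higher. In that sum Cd3d, Cd3g, Cd2, Cd5, Cd8a and Cd8b1 stood higher in both floxed arrays. Cd3e (log2 fold change -0.19) and Cd4, which was too dim to be tested, overlapped between groups. The 8 dendritic cell and MHC class II markers summed to 6901 and 5787 in floxed lungs, against 3423 and 2826 in wild type lungs, with 2 of 15 probe sets called higher. Most of that sum was H2-Ab1 and Cd74, and the called genes were Cd74 and Ciita. Of the 8 summed probe sets, only that of Zbtb46 overlapped between groups (log2 fold change 0.018, limma adjusted p = 0.985). The 10 interferon response genes measured summed to 12220 and 9465 in floxed lungs, against 3656 and 3466 in wild type lungs, with 9 of 12 probe sets called higher. In all 3 lists both floxed arrays summed higher than both wild type arrays. Over all probe sets tested, 0.295% were called higher. Sums take 1 probe set per gene, while calls count every tested probe set of a list. The T cell call came from a probe set outside the sum.

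Plasma cell markers (7 genes, 5 of 15 probe sets called higher) summed to 23980 and 22370 in floxed lungs, against 8396 and 7898 in wild type lungs. Most of the wild type sum was Xbp1 and Sdc1, at log2 fold changes of 0.17 and -0.19. Igha and Jchain stood at 3.66 and 3.79. Markers of monocytes and interstitial macrophages (9 genes, 1 of 17 probe sets called higher) summed to 5875 and 5097 in floxed lungs, against 4015 and 3895 in wild type lungs. Csf1r, at a log2 fold change of 0.21, was the largest part of that sum. The called gene was Fcgr4 (1.37), and of the 9 summed probe sets only that of Ccr2 overlapped between groups. Alveolar macrophage markers (7 genes, 1 of 12 probe sets called higher) summed to 10370 and 10400 in floxed lungs, against 7678 and 8117 in wild type lungs. Most of that sum was Chil3, and the members pointed both ways, with Marco at a log2 fold change of 1.80 and Fabp1 at -0.80. Natural killer and cytotoxic cell markers (7 genes, 0 of 8 probe sets called) summed to 1282 and 890 in floxed lungs, against 740 and 626 in wild type lungs. Gzma was the largest part of that sum. Nkg7, Gzma, Gzmb and Klrd1 stood higher in both floxed arrays, while Prf1, Ncr1 and Eomes overlapped between groups. These 4 lists summed higher in both floxed arrays than in both wild type arrays, and 0.295% of all probe sets tested were called higher. The sums of B cell markers (7 genes, 0 of 10 probe sets called) overlapped, at 615 and 435 in floxed and 578 and 610 in wild type lungs. Among them Ms4a1 and Blk stood lower in both floxed arrays (log2 fold changes -0.44 and -0.49). Of the 10 probe sets, 3 stood apart below (24.1% of all) and 0 apart above (18.4%). Sums of neutrophil markers (5 genes, 0 of 4 tested probe sets called) also overlapped, at 891 and 488 in floxed and 711 and 969 in wild type lungs.

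Cardiac muscle markers (7 genes, 6 of 9 probe sets called lower) summed to 592 and 457 in floxed lungs, against 4103 and 5978 in wild type lungs, and adipose markers (4 genes, 4 of 5 probe sets called lower) to 50.9 and 69.7 in floxed lungs, against 976 and 705 in wild type lungs. Over all probe sets tested, 0.251% were called lower. The wild type samples thus held more signal of genes of heart muscle and fat, and the source of that signal was not tested. Lung epithelial markers (8 genes, 0 of 12 probe sets called) summed to 61710 and 54960 in floxed lungs, against 49830 and 48390 in wild type lungs. The members pointed both ways, with 6 of the 12 probe sets above 0 (44.5% of all) and 6 below. Sftpc stood higher in both floxed arrays (log2 fold change 0.44), while Foxj1 and Epcam stood lower (-0.30 and -0.27) and Nkx2-1 overlapped between groups. The sums of lung endothelial markers (6 genes, 0 of 7 probe sets called) overlapped, at 6584 and 7327 in floxed and 6080 and 6783 in wild type lungs. None of these marker genes was listed at 0 on any array, and the lowest defining ones were Cd4 among T cell markers (mean intensity 3.83) and Lep among adipose markers (4.76). The part that cell composition, sex or RNA integrity plays in the values of the family was not tested.

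The genes whose pattern was most like that of 1458299_s_at of Nfkbie, the member with the largest moderated t, were Lair1, Enc1 and Psmb10. Likeness was the Euclidean distance over the 4 arrays between log2 values centred per probe set, at 0.0379, 0.0494 and 0.0538. These are the smallest distances among all tested probe sets with a single symbol, over only 4 values each. They describe a likeness of values and do not show shared regulation. Psmb10, a subunit of the immunoproteasome, read 948 and 775 in floxed lungs, against 544 and 519 in wild type lungs. Lair1, an inhibitory receptor of leukocytes, read 86.6 and 71.1 in floxed lungs, against 42.9 and 43.6 in wild type lungs. Enc1, an actin-binding protein, read 240.0 and 207 in floxed lungs, against 137 and 133 in wild type lungs.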

How the data were processed

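Per the labels' protocols, total lung RNA was extracted with Trizol and hybridised as biotinylated cRNA, 1 sample per array. The authors deposited a linear intensity for every probe set on every array, made with Affymetrix Expression Console per the submitters' processing notes. Which version and summary algorithm they used is not given in the sources used here. Trimming 2 percent at either end gave the same mean intensity, 150.001, for all arrays, so they had been scaled. No detection calls were used, and the number of arrays limits the precision.

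Groups came from the sample titles. The table's 45101 probe sets include 64 controls. Of the other 45037, a single gene symbol was given for 34945, several for 932 and none for 9160. All 10 members kept their symbol when matched by Entrez number to RefSeq (GRCm38.p6). The log2(intensity + 16) values of 31526 probe sets with a mean of at least 12.7 (the 30th percentile) were fitted in R 4.3.3 by limma 3.58.1 with the functions lmFit and eBayes (no covariates, two-sided, Benjamini-Hochberg, threshold 0.05), with 2 residual and 4.50 prior degrees of freedom. Fold changes are on this scale and understate the change of dim probe sets. The fit was tested on simulated data. Every member probe set was named, with called genes of the pathway lists, Ikbkb, Ikbkg and the 3 genes most like the member of largest t. Marker sums take 1 probe set per gene. The members and lists were chosen with earlier results of these data known. Alternatives changed the pseudocount, filter, normalization, variance prior, unit of the test, arrays used and replicate block.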

Additional observations from a re-analysis of the deposited data

How the results depend on the processing

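No member probe set was called under any of the 13 alternatives. The lowest adjusted p was 0.0523, for 1458299_s_at of Nfkbie with a pseudocount of 64. Of 205 member values under alternatives, 198 kept their direction, and 13 of 17 probe sets never changed it. Values per gene were counted under the brightest probe set of that gene. The direction turned for 1429128_x_at of Nfkb2, at 0.034 without wild type replicate 2 in a range from -0.39 with each array left out. Also counted as a turn was 0.29 for the mean of both Nfkb2 probe sets, which is not a value of 1429128_x_at alone. The other Nfkb2 probe set stood at 0.76 in the main fit. For 1449731_s_at of Nfkbia it was -0.038 without IKKa floxed replicate 2 (range up to 0.27). For Bcl3 it was -0.034 without wild type replicate 1 (range up to 0.50). For 1450829_at of Tnfaip3 it was 0.013 with quantile normalization. With arrays left out, that probe set ran from -0.19 to 0.17 (without IKKa floxed replicate 1), with 0.15 without wild type replicate 1. With 1 array left in a group, the lone sample is assumed to vary like the others. Leaving out each array in turn gave family medians from 0.15 to 0.36, called counts from 84 (without IKKa floxed replicate 1) to 229 over all probe sets, against 172, and from 2 to 4 in the pathway lists, against 2. The count over all probe sets was 13 with a pseudocount of 1, 521 with 64, 47 with no filter, 264 with a filter at the 50th percentile and 512 with a robust prior that follows intensity. In the pathway lists it was 0 with a pseudocount of 1, 7 with 64, 0 with no filter, 6 with the robust prior and 5 with the mean of the probe sets of a gene. Same-numbered arrays did not deviate together (r = -0.025 across probe sets, which are not independent), and with a replicate block 95 probe sets were called, 0 of them members. The causes were not tested. With 2 arrays a group and no detection calls, the arrays cannot say whether the dimmest member probe sets were above background.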

Other observations

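Probe sets of Peli1, a ubiquitin ligase of Toll-like receptor signalling, pointed in opposite directions. The brightest of its 5 probe sets, Peli1 1417371_at, overlapped between groups (log2 fold change 0.015, limma adjusted p = 0.983). Peli1 1417372_a_at read 355 and 337 in floxed lungs, against 219 and 200 in wild type lungs (log2 fold change 0.68, limma adjusted p = 0.155), while Peli1 1431061_s_at read 33.5 and 21.2 in floxed lungs, against 57.9 and 44.7 in wild type lungs (-0.64, adjusted p = 0.331). All 3 probe sets of the chemokine Cxcl1 lay higher in both floxed arrays than in both wild type arrays, with log2 fold changes of 0.40, 0.41 and 1.03 and a lowest limma adjusted p of 0.131. Tab1 and Map3k7, which encode a regulator of the kinase TAK1 and TAK1 itself, each had a probe set that stood lower, with Tab1 1426898_at at 28.4 and 33.4 in floxed lungs against 47.5 and 54.6 in wild type lungs (-0.52, adjusted p = 0.304). Map3k7 1426627_at read 23.8 and 22.9 in floxed lungs, against 36.0 and 34.7 in wild type lungs (-0.39, adjusted p = 0.397), but it was 1 dim probe set of 6, and the brightest, Map3k7 1455441_at, stood at 0.0039 (adjusted p = 0.995). These genes were chosen after their values were seen, and none was called.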
